A study of Mus musculus with 2 samples.

Results

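The DNA replication machinery was examined here as 45 genes whose products license, open and copy chromosomal DNA, from the origin recognition complex to the enzymes that supply nucleotides. The genes were taken from a fixed list of names. A gene entered the comparison through probe sets (groups of array probes for 1 transcript) that carry its symbol and no other in the platform annotation. This held for 44 of the 45, out of 18193 genes with such a probe set. No probe set listed Chaf1a alone, so it was not analysed here. Where a gene had several probe sets, the one with the highest log2 signal, averaged over the arrays, stood for the gene and is called its main probe set.

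The cells were mouse embryonic fibroblasts, primary cells grown out of dissociated embryos. Both cultures had the strain C57BL/6, embryonic day 12.5 and passage number 1 in their labels. They differed in genotype, wild type or homozygous for L307R in Phc2 (Phc2 L307R/L307R, called Phc2 L307R here). Phc2 belongs to Polycomb repressive complex 1, a chromatin complex that keeps developmental genes silent, and the title of the study places the question in the polymerization of its SAM domain. The labels do not say how many embryos each culture came from. Total RNA of each was hybridised to 1 Affymetrix array, so every difference below is one between 2 arrays. It has no replicate error and no test.

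Chromosomes are copied once per cell cycle. In G1 the origin recognition complex, Cdc6 and Cdt1 load the Mcm2 to Mcm7 helicase onto origins, and in S phase Cdc45 and the GINS complex turn it into the active form. Primase and DNA polymerase alpha then start the strands, and the polymerases delta and epsilon extend them on the sliding clamp Pcna. Many of these genes are transcribed as cells pass from G1 into S phase, under E2F transcription factors, so in a culture their transcripts follow the share of cycling cells as well as the level per cell. In bulk RNA, fewer cells in S phase and less RNA per cell cannot be told apart.

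Most replication genes were slightly lower in Phc2 L307R. All 44 genes were measured, that is, their signal lay above the floor of 94.8 on at least 1 array, and all 44 lay above it on both. The floor was the higher of the 2 array medians. The log2 ratio (Phc2 L307R over wild type) was below 0 in 36 of the 44 genes, or 81.8%, against 40.9% of the 11408 measured genes. The median log2 ratio was -0.21 over the replication genes and 0.06 over all measured genes. Of the 44 genes, 40 lay below that median of all genes. The ratios ran from -0.63 for Orc1 to 0.52 for Lig1.

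The differences were small for single genes. A signal at least 20% lower in Phc2 L307R was seen in 10 of the 44 (22.7%), against 11.2% of all measured genes. A signal at least 25% higher, the same distance of 0.32 on the log2 scale, was seen in 1, Lig1, or 2.27% against 17.0%. With the mean over the probe sets of a gene there were 3, Lig1, Fen1 and Rrm1, against 14.3% of all genes. With all ratios centred on the median of measured genes, 16 members and 14.5% of all genes were at least 20% lower. Centring also turned the share of lower genes, among all those past either of these thresholds, from 39.7% to 54.3%. Only Orc1 and Pola1 were at least 1.5-fold lower, 4.55% of the members against 3.25% of all genes, a share close to the background. No main probe set differed 2-fold, against 1.11% of all genes. Among 10101 other genes whose mean signal lay within the range of the replication genes, 119.7 to 9474, the median log2 ratio was 0.06 and 41.0% were below 0.

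**Figure D1:**
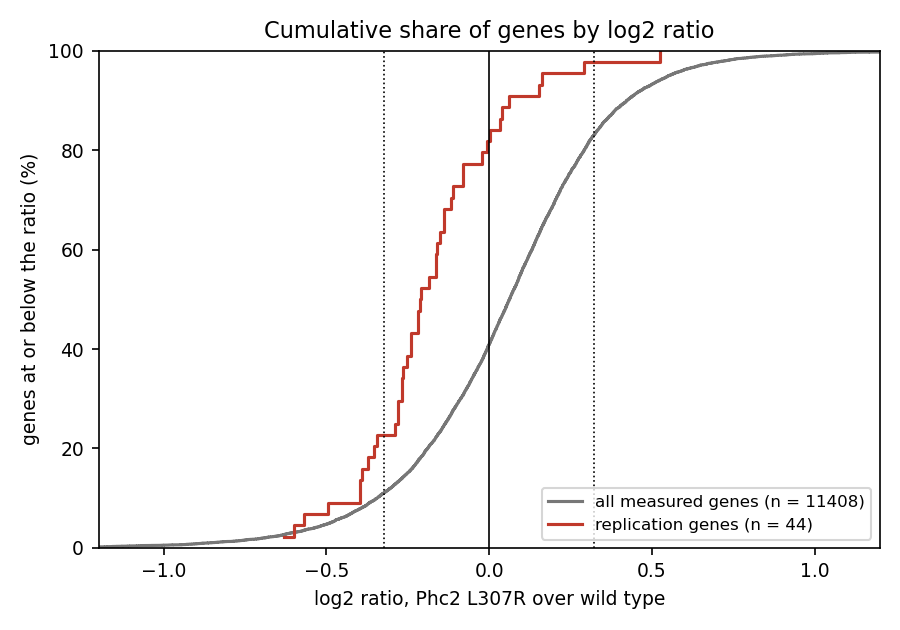
Cumulative share of genes (vertical axis, percent) at or below each log2 ratio of Phc2 L307R over wild type (horizontal axis, cut at -1.2 and 1.2), for the 44 replication genes and the 11408 measured genes; dotted lines mark 20% lower and 25% higher. The replication curve lies to the left of the curve of all genes through its middle and crosses 0 at 81.8%, where all genes stand at 40.9%, while at the far left the 2 curves meet.

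An E2F motif, which the choice of genes did not use, stood in the promoters of 14 of 38 replication genes, a larger share than among all genes. E2F factors bind DNA of the form TTTCCCGC, TTTGGCGC, TTTGCCGC or TTTCGCGC. These 4 motifs were searched on both strands in windows from 250 bases before to 50 bases after transcript starts, taken from RefSeq (GRCm38.p6). The motifs can overlap, as TTTCGCGC on 1 strand and TTTGGCGC on the other do in Mcm5. These 14 of the 38 genes with a window (36.8%) held at least 1 match in the most upstream window searched. The share was 4.29% of 9264 measured genes and 2.26% of all 32851 windows. A match is a description of the sequence and does not show that a factor binds there.

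The median log2 ratio was -0.17 over the 14 members with an E2F match and -0.22 over the 23 measured members without one. Among all measured genes the order was the opposite, with medians of 0.03 over 397 genes with a match and 0.07 over 8867 without. Matches stood in 4 of the 8 genes that were at least 20% lower and had a window, namely Orc1, Pola1, Mcm5 and Cdc6. They also stood in 3 members with a ratio above 0, Pold1 (0.16), Orc3 (0.15) and Rfc3 (0.04). These counts use the most upstream window only. Over any window 15 of the 38 genes held a match. The further gene was Lig1 (0.52), the highest member, which counts above among the members without a match. The motif CCAAT, the core of the site of the factor NF-Y, was in 23 of the 38 genes (60.5%) against 38.7% of measured genes, on either strand. The median log2 ratio was -0.24 over the 22 measured members with CCAAT and -0.12 over the 15 without. Among all measured genes, those with and without CCAAT had medians of 0.06 and 0.07.

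The 200 bases before the transcript start of the window searched are shown for the 4 lower genes and for Orc3, so that the site can be compared between them. Of the 3 higher members with a match in the most upstream window, the match of Pold1 lies after the start, and Rfc3 has the ratio nearest to 0. They lie at chr4:108579254-108579453 (+ strand) for Orc1, chrX:93632156-93632355 (- strand) for Pola1, chr8:75109309-75109508 (+ strand) for Mcm5, chr11:98907951-98908150 (+ strand) for Cdc6 and chr4:34614943-34615142 (- strand) for Orc3, in GRCm38.p6. The annotated genes Orc1, Pola1 and Cdc6 begin further upstream, at 108575705, 93632387 and 98907709, so their stretches lie inside the genes. Those of Mcm5 and Orc3 begin within the printed stretch, at 75109468 and 34614963. Capitals mark the E2F motifs. Counted from the transcript start of the window, they begin 27 bases upstream in Orc1 and 138 in Pola1 and in Cdc6. The positions are 153 and 149 in Mcm5 and 41 in Orc3. In Mcm5 the motifs overlap on opposite strands.
Orc1: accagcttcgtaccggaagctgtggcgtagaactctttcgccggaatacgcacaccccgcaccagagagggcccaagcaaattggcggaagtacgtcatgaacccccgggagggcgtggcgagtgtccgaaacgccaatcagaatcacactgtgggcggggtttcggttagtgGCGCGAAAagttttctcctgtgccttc
Pola1: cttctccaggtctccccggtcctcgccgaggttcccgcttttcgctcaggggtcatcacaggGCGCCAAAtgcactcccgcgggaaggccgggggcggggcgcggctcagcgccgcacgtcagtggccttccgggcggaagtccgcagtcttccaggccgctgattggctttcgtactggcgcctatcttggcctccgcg
Mcm5: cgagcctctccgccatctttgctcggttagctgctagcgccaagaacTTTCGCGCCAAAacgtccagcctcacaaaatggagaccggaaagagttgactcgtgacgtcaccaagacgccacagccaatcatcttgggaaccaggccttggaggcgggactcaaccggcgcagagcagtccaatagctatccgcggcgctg
Cdc6: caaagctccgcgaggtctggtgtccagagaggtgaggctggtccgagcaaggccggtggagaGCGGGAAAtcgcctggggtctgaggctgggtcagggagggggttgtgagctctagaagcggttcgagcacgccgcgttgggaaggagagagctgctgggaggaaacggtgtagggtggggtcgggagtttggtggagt
Orc3: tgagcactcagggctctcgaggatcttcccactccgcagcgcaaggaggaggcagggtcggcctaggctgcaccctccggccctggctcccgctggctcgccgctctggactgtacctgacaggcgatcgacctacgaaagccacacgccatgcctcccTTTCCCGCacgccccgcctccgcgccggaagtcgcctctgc

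Origin licensing genes were lower in 7 of 9, with a median log2 ratio of -0.27. Orc1, the subunit of the origin recognition complex whose transcript rises before S phase, gave 440.9 on the wild-type array and 285.1 on the other, a log2 ratio of -0.63 or 1.55-fold lower. Its second probe set gave 221.2 and 195.6, a log2 ratio of -0.18. At the main probe sets Orc2 to Orc5 stood nearer to 0, with a median of -0.07 over 2 lower and 2 higher genes. The second probe set of Orc1 was nearer to 0 than any of Orc2, so this distance rests on 1 probe set. Orc2 went from 1139.8 to 986.4 (-0.21), and its 3 probe sets lay between -0.29 and -0.21. Orc3 was 1091.0 and 1213.6 (0.15), with a further probe set at -0.16. For Orc4 the signals were 1968 and 1636 (-0.27), and for Orc5 414.9 and 432.3 (0.06). Orc5 was the other licensing gene with a ratio above 0, and it turned to 0.00 or lower when ratios were centred or corrected by loess. Orc6, the smallest subunit, was 1534 (wild type) and 1165 (Phc2 L307R), a log2 ratio of -0.40.

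The factors that load the helicase were lower, together with their inhibitor. Cdc6, the ATPase that joins the origin recognition complex in G1, went from 790.8 to 603.6, a log2 ratio of -0.39. Cdt1, which brings the Mcm proteins to origins, was 2326 and 2154 (-0.11), and a further probe set gave -0.16. Gmnn, or geminin, binds Cdt1 and blocks a second round of loading; it went from 1341 to 1036 (-0.37). Cdc6, Gmnn, Orc6 and Orc1 were the 4 licensing genes at least 20% lower (44.4%), against 11.2% of all measured genes.

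At the main probe sets the helicase was the group with the narrowest spread, and its 11 genes were all lower. The median log2 ratio was -0.27 and the range -0.50 to -0.08, with an SD between genes of 0.11, against 0.22 over all 44. With the mean over probe sets the 11 genes ran wider, from -0.73 for Mcm4 to -0.05 for Mcm2. The main probe sets gave the 6 subunits of the ring, Mcm2 to Mcm7, log2 ratios from -0.50 to -0.15 with a median of -0.26. Mcm5 had signals of 3257 and 2310 at an _x_at set (-0.50, 1.41-fold lower) and its second measured probe set gave -0.35. Mcm4 went from 2859 to 2172 (-0.40) and its second probe set, an _x_at set, from 2847 to 1363, a log2 ratio of -1.06. That was the lowest ratio of any measured probe set of these genes, while the suffix _x_at marks probes that can bind other transcripts. Mcm7 was 5437 and 4451 (-0.29), and all 4 of its probe sets were lower, down to -0.55 at an _x_at set. Mcm3 was 2816.5 and 2385.5 (-0.24). Its other 3 measured probe sets gave -0.05 to 0.10, so without probe sets of the suffixes _x_at and _s_at its ratio turned to 0.10. Mcm2 was 2049 and 1831 (-0.16), with a second probe set at 0.06. Mcm6 was 4174 and 3759.5 (-0.15), with a second, an _x_at set, at -0.80. The direction of Mcm4, Mcm5, Mcm6 and Mcm7 was thus the same in every measured probe set, and that of Mcm2 and Mcm3 was not. Without probe sets of the suffixes _x_at and _s_at, Mcm5 was at -0.35 and Mcm7 at -0.10. The median of the 11 helicase genes was then -0.21.

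The partners that activate the ring were lower by like amounts. Cdc45, which locks the ring into its active form, was 494.1 (wild type) and 410.6 (Phc2 L307R) (-0.27). Mcm10, a factor needed to fire origins, was 485.9 and 403.6 (-0.27). Its second measured probe set was above the floor in wild type only, at 132.5 and 73.9. With the lower signal raised to the floor it gave -0.48. Of the GINS subunits, which hold the ring to the polymerase, Gins2 went from 1344 to 1105.5 (-0.28) and Gins1 from 600.0 to 517.5 (-0.21). Gins3 was 243.1 and 230.0, a log2 ratio of -0.08, and its second probe set gave the same value. These 5 genes had a median of -0.27.

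**Figure D2:**
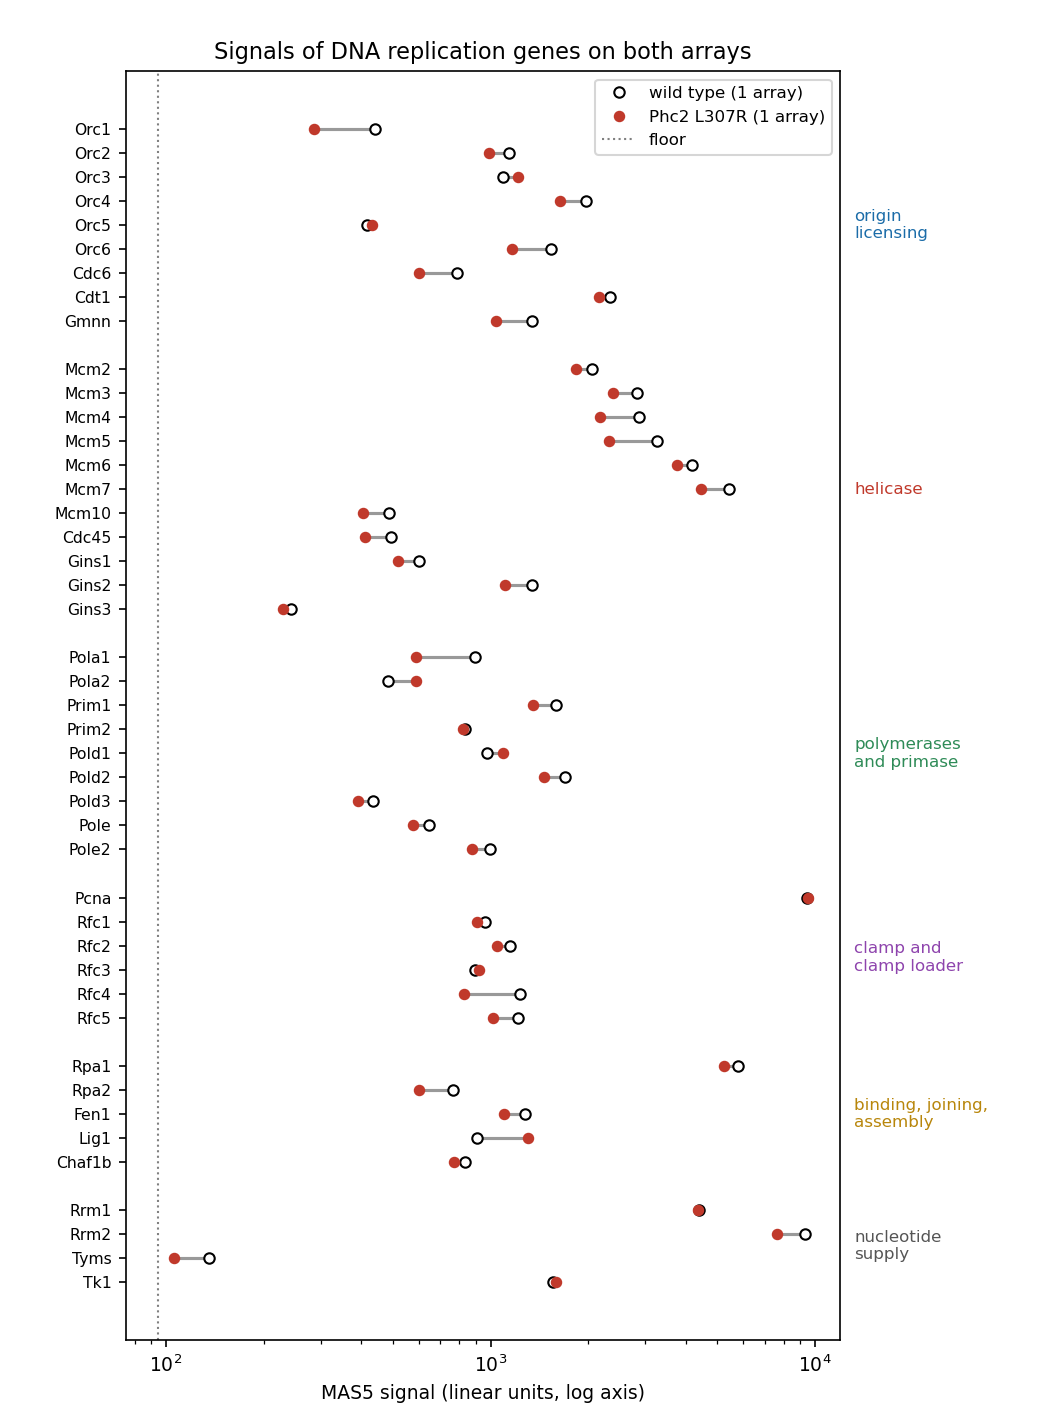
Signal of the main probe set of each of the 44 replication genes (horizontal axis, linear MAS5 units on a log axis) in wild type (open circles) and Phc2 L307R (filled circles), 1 array each, by functional group; the dotted line is the floor of 94.8. The filled circle lies to the left in 36 genes, in all 11 of the helicase group, and lies to the right by 1.44-fold in Lig1; signals of different genes are not comparable as levels.

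The polymerases and primase were lower in 7 of 9 genes, with a median log2 ratio of -0.16. Pola1, the catalytic subunit of the polymerase that starts each strand, had signals of 895.1 and 590.2, a log2 ratio of -0.60 on its 1 measured probe set. Its partner Pola2 went the other way, from 481.5 to 589.3 (0.29), also on 1 probe set. Of the primase subunits, which make the RNA primer, Prim1 was 1592 and 1348 (-0.24) and Prim2 834.9 and 822.9 (-0.02). Their second measured probe sets gave -0.33 and -0.24. The 4 subunits of this complex thus ran from -0.60 to 0.29 on the log2 ratio scale.

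DNA polymerase delta copies the lagging strand. Its catalytic subunit Pold1 was 975.0 (wild type) and 1090.3 (Phc2 L307R) (0.16), while its second probe set, an _x_at set, went from 853.2 to 571.3 (-0.58). The direction of Pold1 therefore depended on the probe set. Pold2 was 1698 and 1459 (-0.22). Pold3 was 435.5 and 389.8 (-0.16), also at an _x_at set, and its other probe sets gave -0.61 and -0.07, both lower. For the leading-strand polymerase epsilon, the catalytic subunit Pole was 645.6 and 577.0 (-0.16) and Pole2 was 999.6 and 878.8 (-0.19).

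The sliding clamp had nearly the same signal on both arrays at its 1 probe set. Pcna, the ring that tethers polymerases to DNA and a usual marker of S phase, had signals of 9471 and 9477, a log2 ratio of 0.00. Centring put it at -0.06 and loess at -0.10. Of the 5 clamp loader subunits, which open the ring, 4 were lower, with a median of -0.14 over the 5. Rfc4 stood apart at 1231 and 829.3, a log2 ratio of -0.57 or 1.48-fold lower, and its second probe set gave -0.35. Rfc5 went from 1214.5 to 1019.7 (-0.25). Rfc2 was 1152 and 1046 (-0.14), with 2 dimmer _x_at sets at 0.05 and 0.51. Rfc1 was 960.5 and 909.0 (-0.08), and its other probe sets gave -0.35 and 0.00. Rfc3 was 898.2 and 922.5 (0.04), with a second probe set at -0.32. Of the clamp loader, Rfc4 and Rfc5 had no probe set above 0, nor had Rfc1, while Rfc2 and Rfc3 had probe sets on both sides.

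Genes that bind single strands, join fragments and assemble chromatin held both directions. Rpa1, the large subunit of the protein that coats single-stranded DNA, was 5775 and 5248 (-0.14), and Rpa2, its middle subunit, was 767.1 and 603.6 (-0.35). Their second probe sets gave -0.17 and -0.37. Lig1, the ligase that seals Okazaki fragments, was the highest member, at 909.3 in wild type and 1307 in Phc2 L307R, a log2 ratio of 0.52 on its 1 probe set. Fen1, the nuclease that trims these fragments, was 1276 and 1097 (-0.22) at its main probe set. At its second, an _x_at set, it was 705.5 and 1578, a log2 ratio of 1.16, and the mean of both was 0.47. Chaf1b, a subunit of the histone chaperone CAF-1, was 836.2 and 770.7 (-0.12). The median of the 5 genes measured was -0.14.

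Enzymes of nucleotide supply had a median log2 ratio of -0.14 over 4 genes, 3 of them lower. Rrm2, the subunit of ribonucleotide reductase made in S phase, went from 9278 to 7645.5 (-0.28), and its 3 probe sets lay between -0.39 and -0.20. Rrm1, the large subunit, was 4396 and 4371 (-0.01), but its second measured probe set went from 3315 to 5362 (0.69). Tk1, the thymidine kinase of cycling cells, was 1559.8 and 1595.5 (0.03). Tyms, thymidylate synthase, was dim at its main probe set, 135.4 and 105.9 (-0.35). A brighter probe set that lists Tyms together with the pseudogene Tyms-ps was 1402 and 1329.9, a log2 ratio of -0.08, and was left out by the rule. With a floor at the 60th percentile Tyms was no longer measured and the median of the other 3 was -0.01.

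The further probe sets of these genes, which the choice of the main one leaves out, were lower too. Of 38 further measured probe sets, 31 were lower, with a median log2 ratio of -0.21. Over 9329 further measured probe sets of all genes, the median was -0.01 and 51.4% were lower. In the 27 members with at least 2 measured probe sets, all were lower in 19 (70.4%), against 19.9% of the 5460 genes with at least that many, and they differed in direction in 8. Every measured probe set was at least 20% lower in 4 of the 27 (14.8%), against 2.25%: Mcm4, Mcm5, Rfc4 and Rpa2. The other 17 members rest on 1 measured probe set.

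Probe sets of 1 gene disagreed by more than the median difference of the members. The SD between them was 0.28 in log2 ratio over the 27 members and 0.32 over the 5460 genes with more than 1 measured. In 7 members the probe sets lay over 0.5 apart: Fen1, Pold1, Rrm1, Mcm4, Mcm6, Rfc2 and Pold3. The 11 measured _x_at sets spanned -1.06 to 1.16, with 8 of them lower. A ratio of a single member near -0.2 therefore lies within the disagreement of probe sets, and no gene order within that range can be read.

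**Figure D3:**
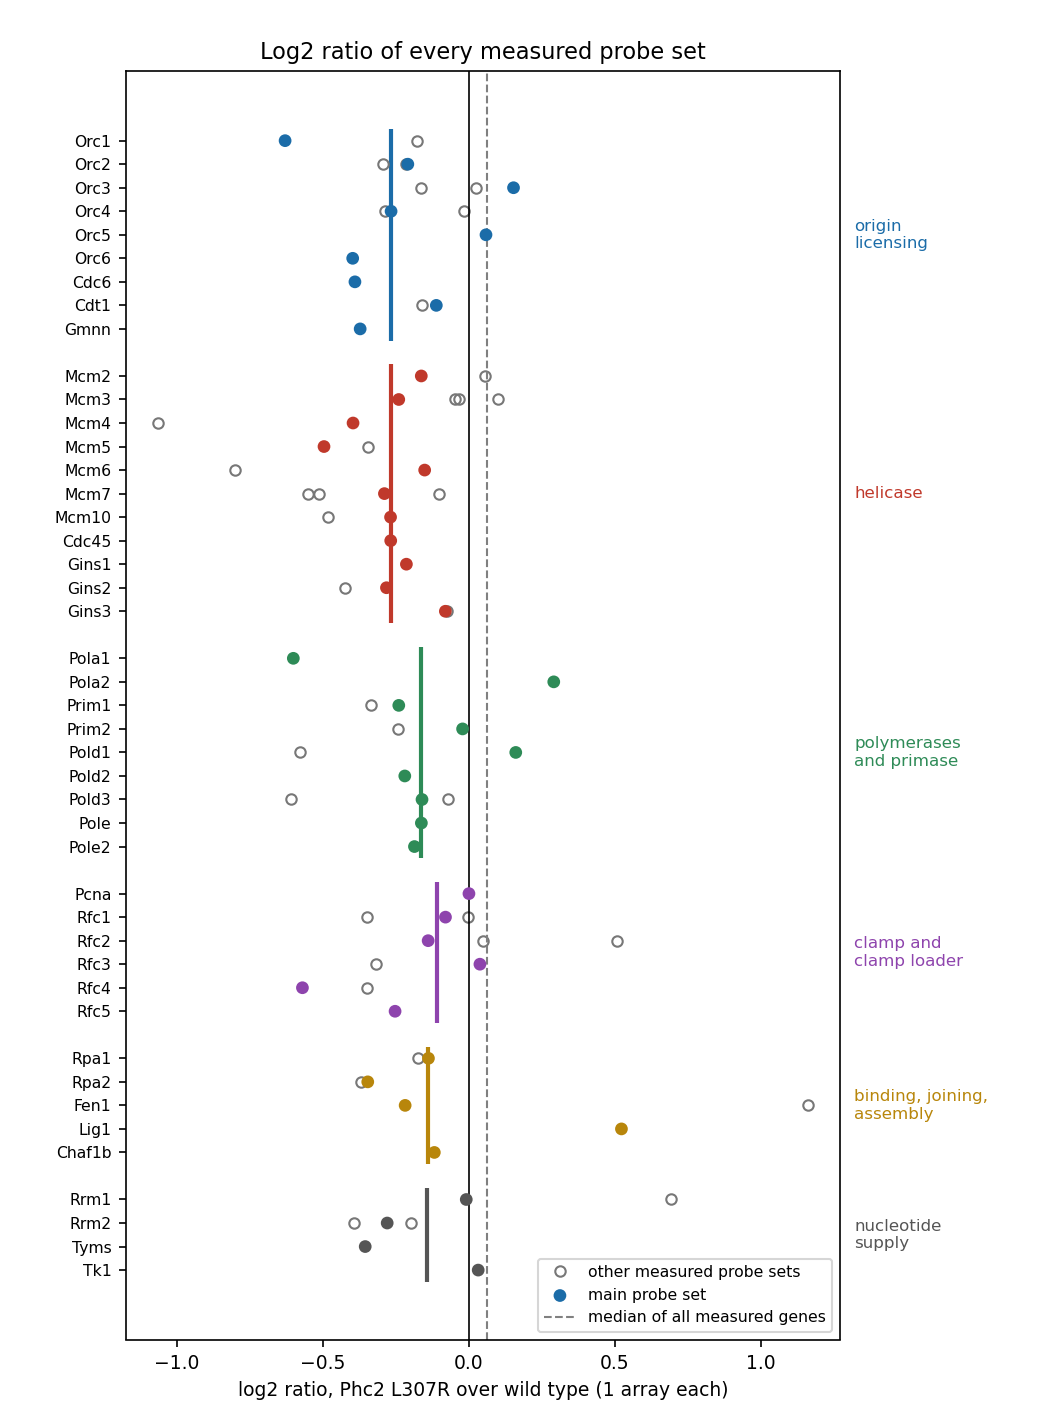
Log2 ratio of Phc2 L307R over wild type (horizontal axis, 1 array each) for every measured probe set of the 44 replication genes; filled points are main probe sets, open circles the 38 others, vertical bars the group medians of the main sets and the dashed line the median of all measured genes, 0.06. Most points lie left of 0, and Fen1, Rrm1 and Rfc2 have an open circle far to the right of their filled point.

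Within the 44 genes, 19 serve as markers of S phase in single-cell scoring. At the main probe sets 18 of the 19 were lower, with a median log2 ratio of -0.27, and the exception was Pcna. With the mean over probe sets Fen1 (0.47), Rrm1 (0.34) and Rfc2 (0.14) were above 0 too. Of the 25 members outside this signature, 18 were lower at the main probe sets, with a median of -0.16. The 25 hold Lig1, Pola2, Pold1 and Orc3. The signature genes that are no members here were lower in 21 of 22, with a median of -0.28. Whether the members in and outside the signature differ cannot be tested with 1 array per genotype.

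Other genes of DNA replication had a like median. Of 39 measured, 32 were lower, with a median of -0.20. At least 20% lower were 11 of them (28.2%), against 11.2% of all measured genes. At least 25% higher were 2 of the 39, against 17.0% of all measured genes. Dck, the deoxycytidine kinase of nucleotide salvage, had signals of 2171 and 1192 (-0.87) and was lower at both further probe sets. Dna2, a nuclease and helicase of Okazaki fragments, was 396.5 and 255.3 (-0.64), and Dbf4, the activator of the kinase that fires origins, 3072 and 2141 (-0.52). Mcm9, a relative of the ring subunits that acts in repair, was 109.9 and 160.3 (0.54), close to the floor.

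Most of the regulators above them were lower as well. Of 24 E2F factors, pocket proteins and G1/S cyclins, 18 were lower, with a median of -0.09, which was -0.16 with the mean over probe sets. Ccne2, cyclin E2, was 1228 and 652.2 (-0.91), E2f5 was 1156 and 798.2 (-0.53) and E2f8 was 570.0 and 408.2 (-0.48, with a further probe set at -0.17). Ccnd3, cyclin D3, was 4546 and 6131 (0.43), and a further probe set gave 0.94. Replication-coupled repair genes were lower in 15 of 18 (median -0.38), among them Brip1 (-0.76), Hells (-0.61), Brca1 (-0.60) and Uhrf1 (-0.57). The other 2 probe sets of Brca1 gave -0.27 and -0.01. Mitosis genes were lower in 22 of 24 (median -0.32), with Nuf2 at -1.08, Kif2c at -0.72, Birc5 at -0.54 and Bub1 at -0.52. The value of Kif2c comes from an _x_at set, and its other 2 probe sets gave -0.12 and -0.04. Without _x_at and _s_at sets the median of the mitosis genes was -0.21 and that of the replication genes -0.20. With 1 array per genotype no difference between the lists can be tested.

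**Figure D4:**
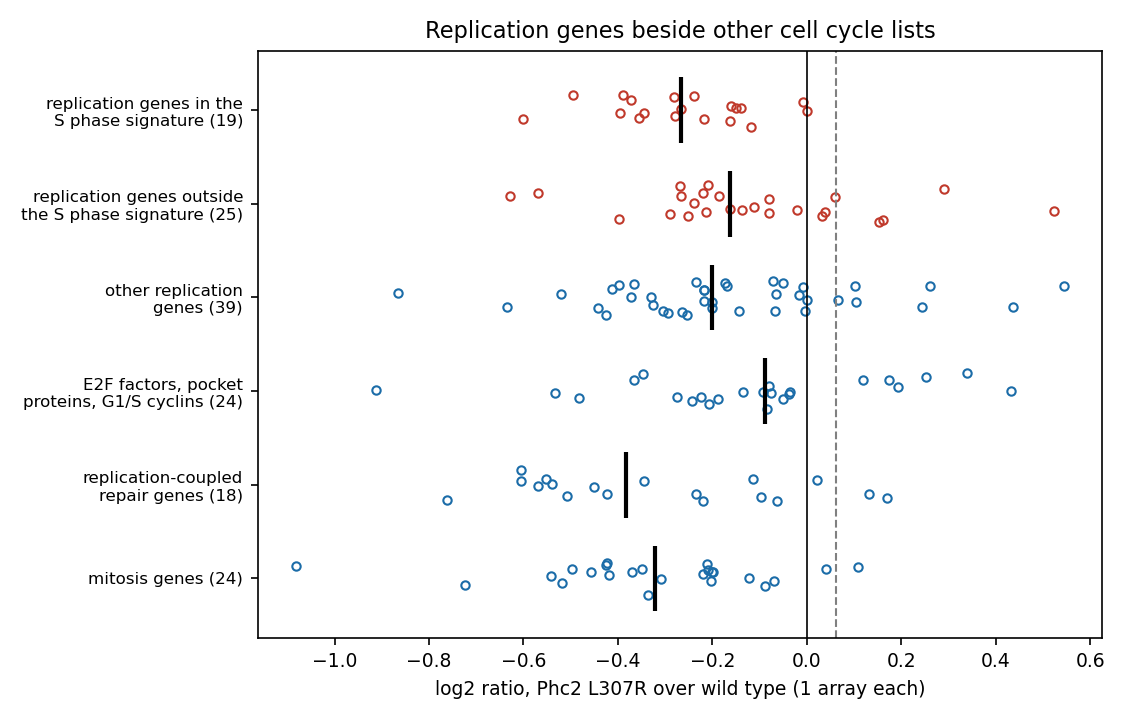
Log2 ratio of Phc2 L307R over wild type (horizontal axis, 1 array each) for each measured gene of 6 lists, with the number of genes in brackets; black bars are medians and the dashed line is the median of all measured genes, 0.06. All 6 medians lie below 0, from -0.09 for the E2F factors, pocket proteins and cyclins to -0.38 for the repair genes.

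Other features of the 2 cultures moved with these values, and their part in them was not tested. All 10 fibroblast markers were measured and 7 were higher, with summed signals of 136180 (wild type) and 174365 (Phc2 L307R). All 8 chondrocyte markers were measured, and 5 were at least 2-fold higher, against 66 of the 11408 measured genes. With these, 7 of the 8 were higher, and the median log2 ratio was 1.03. The exception was Sox9, at -0.29 and, on its second measured probe set, -0.08. The sums of the 8 chondrocyte markers were 5129.5 and 7658, of which Col2a1 made up 4037 and 5685. All sums given here take in every listed marker with a probe set, also those below the floor. Of muscle markers 6 of 7 were measured (sums 17128 and 18505), of neural markers 6 of 6 (3509.8 and 4698.5) and of epithelial markers 3 of 6 (1205.2 and 940.9). The neural markers went both ways, 4 higher and 2 lower, from -1.31 for Map2 to 1.01 for Stmn2. Neither array put the globin genes Hbb-y, Hbb-bh1, Hba-x and Hba-a1 above the floor, nor the leukocyte marker Ptprc, the endothelial markers Pecam1 and Cdh5 or the epithelial markers Epcam and Cdh1. Macrophage markers were measured in 5 of 10 (sums 804.9 and 1172.7), endothelial ones in 4 of 8 (917.2 and 818.5) and erythroid ones in 1 of 7 (206.8 and 312.9). Much of these sums is therefore signal below the floor: the 1 measured erythroid gene, Epor, had 121.1 (wild type) and 148.5 (Phc2 L307R). Of the measured endothelial markers 2 were higher and 2 lower, from -1.15 for Emcn to 0.44 for Tek.

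The 2 arrays had close medians, 94.8 and 94.3. RNA integrity, read from the signal at the 3' end over that at the 5' end, gave 0.791 (wild type) and 0.721 (Phc2 L307R) for Gapdh, with 1.15 and 1.14 for Actb. Phc2 itself had log2 ratios of 0.36 and -0.02 at its 2 probe sets, which check nothing about a missense allele. Of the members, Orc1, Orc3 and Rpa2 lie on chromosome 4 with Phc2. Rpa2, 52 measured genes away, is the only one within 100 of them to either side, and Orc1 is 133 genes away. Without these neighbours the median of the 43 other members was -0.21.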

How the data were processed

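Per the labels, total RNA of 2 cultures was labelled with biotin and hybridised to 1 Affymetrix array each. The authors deposited linear intensity values, 1 signal for each of 45101 probe sets per array. They were made with MAS5, an algorithm that reduces the probe pairs of a probe set to 1 signal, and Affymetrix Expression Console, per the submitters' processing notes. The sources used here do not give the scaling; with 2% trimmed at each end, both arrays had a mean of 500.0.

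The 64 control probe sets were left out. Of 45037 others, 34945 carried 1 symbol, 932 several and 9160 none listed; 34741 of the first matched a RefSeq gene table (GRCm38.p6), which updated names. Per gene the probe set of highest mean log2 signal was used, with signals below the floor (94.8) raised to it. Log2 ratios are signed so that positive means higher in Phc2 L307R. A single array for each genotype allows neither test nor p-value; the number of arrays limits precision. Groups are described by counts and medians beside those of all 11408 measured genes, at 20% lower or 25% higher and at 1.5 and 2-fold. All members were named, and up to 4 genes of largest difference in each of 4 further lists. The members, lists and thresholds were chosen with earlier results of these data known. Alternatives were quantile normalization, loess (span 0.4, 3 iterations), centring, floors at the 40th and 60th percentiles, none or as pseudocount, the mean over probe sets, no _x_at or _s_at sets, signal above the floor on both arrays, and removal of 100 measured genes on each side of Phc2. Calculations were tested on simulated arrays with planted differences, in Python 3.11.15 with statsmodels 0.14.6. The planted differences were larger than the median difference of the members and lay in genes of high signal only.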

Additional observations from a re-analysis of the deposited data

How the results depend on the processing

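The median log2 ratio of the replication genes stayed below 0 under all 11 alternatives, from -0.27 to -0.19, and so did the 6 group medians and those of the 5 other lists, 132 values in all. The number of members below 0 was 35 to 40. Of the 36 members with a ratio below 0, 32 kept that sign under every alternative that measured them; Mcm3, Rfc2, Fen1 and Rrm1 did not. A move is counted here when it exceeds the SD between probe sets, 0.32, divided by the square root of the number of genes. By that measure the median of the replication genes moved to -0.27 with loess and with centring, and that of the other replication genes to -0.26 with both. Both also took the median of all measured genes from 0.06 to 0.00. The difference of the replication genes from that median thus stayed at -0.27. That of the other replication genes was -0.26, and -0.27 with loess. For the S phase signature it was -0.33, and -0.34 with loess. The S phase signature moved to -0.34 with loess, -0.33 with centring and -0.32 with the mean over probe sets, which also moved the E2F and cyclin list to -0.16 and mitosis genes to -0.24. Mitosis genes were at -0.21 without _x_at and _s_at sets. Repair genes moved to -0.29 both with the pseudocount and when the 60th percentile was the floor. The number at least 20% lower was 16 with centring, and the number at least 1.5-fold lower was 0 with the pseudocount, which draws all ratios toward 0 by its construction. Signals near the floor limit Tyms most. Both arrays are single, so no replicate could be left out and no paired analysis was possible because each genotype has 1 sample.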
